A study of Mus musculus with 10 samples.

Results

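Cadherins and protocadherins were taken from an RNAseq study of gliomagenesis in mouse astrocytes as every gene whose symbol is Cdh followed by a number, or Pcdh followed by a number or by the letter a, b or g. The rule found 94 of the 23230 features measured, and used no measured value. They were 23 cadherins (5 of type I, 13 of type II and 5 others), 12 protocadherins encoded at loci of their own, and 59 members of the clustered protocadherin arrays (15 *Pcdha*, 22 *Pcdhb* and 22 *Pcdhg*).

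Expression was measured as FPKM, a count of sequenced fragments scaled by transcript length and by library size, in 10 libraries with 1 library per culture. AstroEGFR (3 libraries) were astrocytes from the cerebral cortex of C57BL/6 pups at postnatal day 5 that lack *Ink4a/Arf* and express human EGFRvIII, a constitutively active receptor, from a retroviral vector. PT (4 libraries) were glioma propagating cells grown from the tumours that such astrocytes formed in CD1 Nude mice. AstroEGFR_Zfp423 (3 libraries) were the same AstroEGFR cultures infected with a vector for the transcription factor *Zfp423*, which is lentiviral by the labels and retroviral by the paper. All groups therefore shared the *Ink4a/Arf* deletion and EGFRvIII. The astrocyte batch is part of the name of each AstroEGFR and AstroEGFR_Zfp423 library, and by the paper PT1 and PT4 derive from batch 1, PT2 derives from batch 2 and PT3 derives from batch 3. The medium of AstroEGFR held serum, whereas PT were kept on laminin with EGF and FGF2 and no serum, so the medium and the passage through a tumour cannot be told apart.

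Cadherins are calcium-dependent adhesion receptors. Their extracellular repeats bind cadherins on the neighbouring cell, and the tails of the type I and type II subfamilies bind catenins, which link them to actin. Astrocytes and neural progenitors adhere mainly through N-cadherin. Clustered protocadherins are read from tandem arrays in which each variable exon has its own promoter. Each variable exon of *Pcdha* and *Pcdhg* is spliced to constant exons shared by its array, whereas each *Pcdhb* gene is a single exon. Neurons choose a few of these promoters per cell, a choice that depends on CTCF and cohesin, and the resulting surface proteins let a neuron tell its own branches from those of others.

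FPKM keep no counts, and the depth of the libraries is unknown. AstroEGFR_3 and PT3 had the fewest features above 0, with 14813 and 14075 against 15794 to 17030 in the other 8 libraries. The lowest 1% of their values above 0 reached up to 0.0384 and 0.0299 FPKM, against 0.0042 to 0.00712 FPKM in the others, so low values in these libraries rest on few fragments. *Zfp423* itself was at 3.25 to 4.30 FPKM in AstroEGFR, at 15.7, 9.73 and 105 FPKM in AstroEGFR_1_Zfp423, AstroEGFR_2_Zfp423 and AstroEGFR_3_Zfp423, and at 0.641 to 2.78 FPKM in PT. The 8 astrocyte markers were found in every group, with a summed level of 509 to 1048 FPKM in AstroEGFR, 352 to 921 FPKM in PT and 59.4 to 904 FPKM in AstroEGFR_Zfp423. The 7 markers of fibroblasts or meninges summed to 694 and 664 FPKM in AstroEGFR_1 and AstroEGFR_2 and to 5859 FPKM in AstroEGFR_3, to 47.6 to 528 FPKM in PT, and to 4876, 6946 and 354 FPKM in AstroEGFR_Zfp423 of batches 1, 2 and 3. The 6 microglial markers summed to 1116 and 602 FPKM in AstroEGFR_1_Zfp423 and AstroEGFR_2_Zfp423 and to at most 8.76 FPKM in the other 8 libraries. In such bulk samples fewer cells of a type and less RNA per cell cannot be told apart. *Gapdh* was listed at 0.0106 to 50.1 FPKM, so a value near 0 does not show that a transcript was missing.

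Of the 94 members, 66 reached 1 FPKM in at least 1 library, 13 did so in all 10, and 7 were listed at 0 throughout (*Cdh7*, *Cdh8*, *Cdh9*, *Cdh16*, *Pcdha1*, *Pcdha7* and *Pcdha11*). Together they made up 0.0655% to 0.264% of the FPKM of a library. The level was concentrated in few members. *Pcdhgc3*, a C-type gamma isoform, had the highest mean over the 10 libraries with 203 FPKM, followed by *Cdh2* (N-cadherin) with 129, *Cdh13* (T-cadherin, held in the membrane by a lipid anchor without a cytoplasmic tail) with 93.8 and *Cdh11* (a type II cadherin of mesenchyme) with 92 FPKM. Among protocadherins with their own locus, *Pcdh7* averaged 25.3, *Pcdh18* 13.4 and *Pcdh9* 6.94 FPKM. In *Pcdhb* the highest means were those of *Pcdhb22* (6.00), *Pcdhb17* (5.88) and *Pcdhb14* (4.59 FPKM). In *Pcdha* only *Pcdhac2*, a C-type isoform, reached 1 FPKM, and the other 14 were at 0.493 FPKM or less in all 10 libraries.

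**Figure D1:**
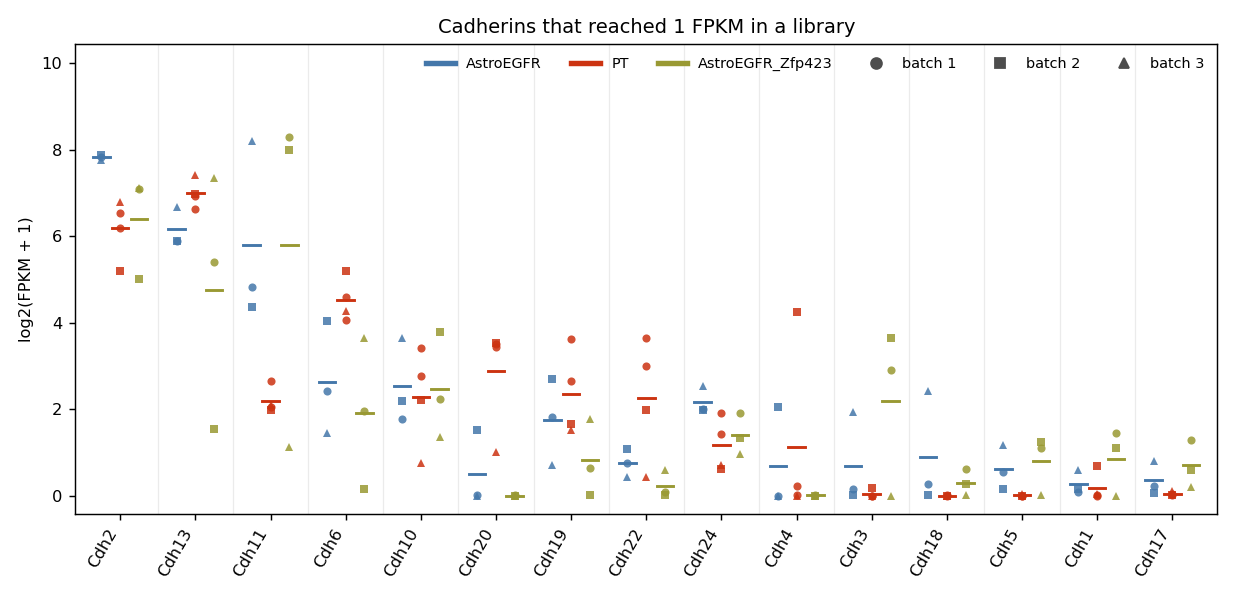
Each point is the level of a cadherin in 1 library, as log2(FPKM + 1), for the 15 cadherins that reached 1 FPKM somewhere, ordered by mean FPKM; colours give the group, marker shapes the astrocyte batch and bars the group mean. All PT points of *Cdh2* and *Cdh11* lie below those of AstroEGFR, and the 3 points of AstroEGFR_Zfp423 for *Cdh11* span 1.18 to 311 FPKM.

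The first comparison asked which members differ between PT and the AstroEGFR cultures from which the tumours grew. Values were compared as log2(FPKM + 1) with limma over the 12261 features whose mean reached 1 FPKM, a scale that understates the change of low genes. The filter kept 54 of the 94 members. None of them passed a Benjamini-Hochberg adjusted p of 0.05, against 152 of all features (1.24%). At an unadjusted p under 0.05 there were 18 members, 8 higher and 10 lower in PT, against 13.6% of all features, 5.88% higher and 7.69% lower. A fit that compares each PT with the AstroEGFR of its own batch called 3 members, *Cdh6*, *Pcdh18* and *Pcdhgc5*, and 3.87% of all features. That fit and the reported one without a block both count PT1 and PT4, from the same batch 1, as 2 replicates. With their mean in their place the fit with the block called 0 members and 49 features (0.4%). In it 22 of 53 members and 19.4% of all features had an unadjusted p under 0.05. Averaging lowered the number of features called without the block as well. Over all 94 members without a filter, every PT library lay above every AstroEGFR library in 14, of which 11 were *Pcdhb*, and below in 11, of which 5 were *Pcdhg*. Among all features above 0 the same held for 5.27% and 7.75%.

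Cadherins of the classical kind were lower or higher in PT according to the member. *Cdh2*, which builds the adherens junctions of neural cells, was at 225, 235 and 215 FPKM in AstroEGFR_1, AstroEGFR_2 and AstroEGFR_3 and at 91.3, 35.7, 110 and 72.3 FPKM in PT1, PT2, PT3 and PT4. The 3 AstroEGFR values lay close together and above all 4 of PT. The difference did not pass the threshold over all features (log2 fold change -1.64, SE 0.39, limma, adjusted p = 0.110). The other type I cadherins were low or uneven. *Cdh4* (R-cadherin, found in brain) was at 3.14 FPKM in AstroEGFR_2 and 17.9 FPKM in PT2 and at 0.17 FPKM or less in the other 5 libraries of the comparison, so it was above 1 FPKM in batch 2 alone. *Cdh1* (E-cadherin of epithelia) reached 0.597 FPKM at most in these 7 libraries, and *Cdh15* (M-cadherin of muscle) 0.637 FPKM.

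*Cdh11* had the largest difference of any member on this scale. It was at 27.2, 19.5 and 293 FPKM in AstroEGFR_1, AstroEGFR_2 and AstroEGFR_3 and at 3.16, 2.92, 3.29 and 5.29 FPKM in PT1, PT2, PT3 and PT4. All 4 PT values were alike and below the lowest AstroEGFR value, while AstroEGFR_3 stood far above the other AstroEGFR libraries. The log2 fold change was -3.60 (SE 0.85, limma, adjusted p = 0.109). Without AstroEGFR_3 it was -2.39 and passed the threshold (limma, adjusted p = 0.0488). With a pseudocount of 0.1 FPKM, which weighs low values more, it was -3.88, and the differences of *Cdh20* and *Pcdh15* were then larger in size. The summed markers of fibroblasts or meninges were lower in PT as well, with 7 of 7 tested members lower and 1 of them, *Pdgfrb*, past the threshold (log2 fold change -4.14, limma, adjusted p = 0.0200). Their part in the level of *Cdh11* was not tested.

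Other type II cadherins were higher in PT. *Cdh6* (K-cadherin, expressed in the embryonic kidney and neural tube) was at 4.33, 15.4 and 1.75 FPKM in AstroEGFR_1, AstroEGFR_2 and AstroEGFR_3 and at 23.2, 35.6, 18.2 and 15.6 FPKM in PT1, PT2, PT3 and PT4. The lowest PT value stood just above the highest AstroEGFR value, and each PT was higher than the AstroEGFR of its own batch. The log2 fold change was 1.89 (SE 0.59, limma, adjusted p = 0.211), and with the batch as a block it was 1.95 (SE 0.33, limma, adjusted p = 0.0453), so that *Cdh6* passed the threshold there. With the block and the mean of PT1 and PT4 it did not (log2 fold change 1.96, limma, adjusted p = 0.116). *Cdh20*, a type II cadherin of the nervous system, was at 0.012, 1.86 and 0 FPKM in AstroEGFR and at 9.84, 10.5, 1.02 and 10.4 FPKM in PT1, PT2, PT3 and PT4. It was at about 10 FPKM in each PT but PT3, whose value lay below that of AstroEGFR_2 (log2 fold change 2.36, SE 0.73, limma, adjusted p = 0.202). *Cdh22*, described first in pituitary and brain, was at 0.359 to 1.11 FPKM in AstroEGFR and at 6.997, 2.98, 0.343 and 11.4 FPKM in PT1, PT2, PT3 and PT4, so that PT3 again resembled AstroEGFR (log2 fold change 1.51, SE 0.73, limma, adjusted p = 0.422). *Cdh24*, which binds catenins like its relatives, was lower, at 2.92 to 4.75 FPKM in AstroEGFR and 0.535 to 2.74 FPKM in PT (log2 fold change -0.997, SE 0.41, limma, adjusted p = 0.345). *Cdh5* (VE-cadherin of endothelium) was at 0.109 to 1.24 FPKM in AstroEGFR and at 0 in 3 PT libraries and 0.031 FPKM in PT3.

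The upstream promoter sequences of *Cdh6* and *Cdh20*, the type II cadherins with the largest differences upward, are shown from RefSeq (GRCm38.p6) beside that of *Pcdh18*, a member lower in PT that is described next. Each ends at the base before the annotated start of transcription, or before any annotated exon, and is written on the strand of the gene. They are chr15:13173676-13173925 (minus strand) for *Cdh6*, chr1:104768270-104768519 (plus strand) for *Cdh20* and chr3:49757326-49757566 (minus strand) for *Pcdh18*. Capitals mark a match, on either strand, to GGGTGC, an arm of the inverted repeat that *Zfp423* binds.
Cdh6: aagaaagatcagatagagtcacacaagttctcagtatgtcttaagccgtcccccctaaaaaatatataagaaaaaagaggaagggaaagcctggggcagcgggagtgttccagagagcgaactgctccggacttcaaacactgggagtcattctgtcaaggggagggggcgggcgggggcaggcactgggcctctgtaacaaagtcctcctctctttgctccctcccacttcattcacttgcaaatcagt
Cdh20: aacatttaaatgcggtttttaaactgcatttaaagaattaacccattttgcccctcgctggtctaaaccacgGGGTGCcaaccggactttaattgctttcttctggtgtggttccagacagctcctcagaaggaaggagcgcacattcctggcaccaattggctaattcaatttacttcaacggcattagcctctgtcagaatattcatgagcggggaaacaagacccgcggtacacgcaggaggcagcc
Pcdh18: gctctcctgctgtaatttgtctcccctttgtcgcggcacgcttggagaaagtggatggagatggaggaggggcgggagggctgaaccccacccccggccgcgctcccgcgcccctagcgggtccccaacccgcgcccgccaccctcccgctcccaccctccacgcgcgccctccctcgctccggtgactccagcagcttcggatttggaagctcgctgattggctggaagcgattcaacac
The *Cdh20* window held 1 match and the others held 0, and 13.3% of 32851 RefSeq promoters hold the motif in 250 bases. The E-box CAGGTG, which proteins of the Snail family bind, searched on both strands as well, was in 0 of these windows and in 17.2% of all. The windows differed in base composition, with 51.2% G and C in *Cdh6*, 47.6% in *Cdh20* and 67.6% in *Pcdh18*. A match describes these letters only.

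*Cdh13*, which binds adiponectin and does not bind catenins, was the other abundant cadherin. It was at 58.6, 58.4 and 102 FPKM in AstroEGFR_1, AstroEGFR_2 and AstroEGFR_3 and at 121, 125, 170 and 98.2 FPKM in PT1, PT2, PT3 and PT4. Each PT exceeded the AstroEGFR of its own batch, although PT4 and AstroEGFR_3 overlapped (log2 fold change 0.83, SE 0.31, limma, adjusted p = 0.299). The sum of type I cadherins was 218 to 238 FPKM in AstroEGFR and 54.4 to 110 FPKM in PT, while that of the cadherins outside type I and type II, nearly all of it *Cdh13*, was 58.8 to 102 FPKM and 98.2 to 171 FPKM.

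**Figure D2:**
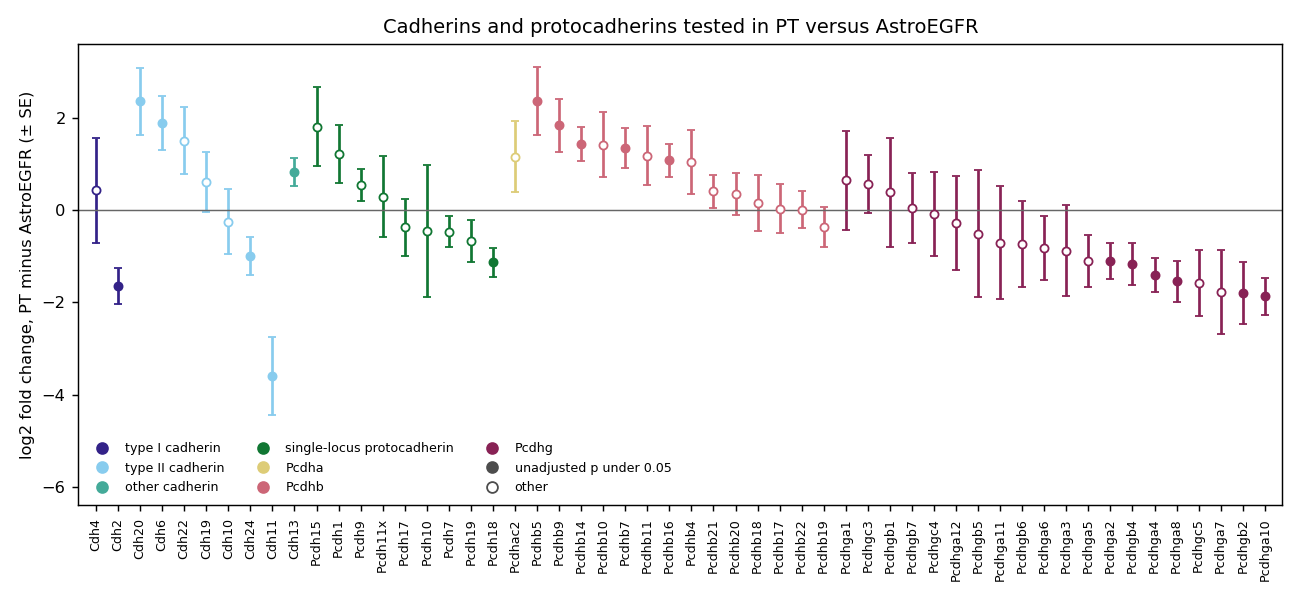
Points give the log2 fold change of PT against AstroEGFR with its standard error for each of the 54 members tested, coloured by subgroup and filled where the unadjusted p was under 0.05. Most *Pcdhb* points lie above 0 and most *Pcdhg* points below, but the filter on the mean kept some of them only through the group in which they were high, and none of the 54 passed the adjusted threshold.

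Protocadherins with loci of their own showed few differences in common. Of 12, 6 were higher and 6 lower in PT without a filter, with a median log2 fold change of -0.041 against -0.0021 over all features above 0. *Pcdh18*, which binds the adaptor Dab1, was at 16.4, 26.4 and 11.9 FPKM in AstroEGFR_1, AstroEGFR_2 and AstroEGFR_3 and at 7.97, 9.96, 6.25 and 5.88 FPKM in PT1, PT2, PT3 and PT4. All PT values lay below all AstroEGFR values. The log2 fold change was -1.13 (SE 0.32, limma, adjusted p = 0.166), and with the batch as a block -1.11 (SE 0.19, limma, adjusted p = 0.0461), so that *Pcdh18* passed the threshold there. With the block and the mean of PT1 and PT4 it did not (log2 fold change -1.10, limma, adjusted p = 0.123). *Pcdh15*, a component of the tip links of hair cells, was at 0 to 0.003 FPKM in AstroEGFR and at 0.651, 9.27, 0.024 and 7.67 FPKM in PT1, PT2, PT3 and PT4. It was higher in every PT, by a wide margin in PT2 and PT4 and by little in PT3 (log2 fold change 1.81, SE 0.85, limma, adjusted p = 0.416). *Pcdh7*, the most abundant of them, was at 28.7 to 34.8 FPKM in AstroEGFR and at 12.5 to 34.7 FPKM in PT, with overlapping groups. *Pcdh10*, which recruits the WAVE complex, a driver of branched actin, to cell contacts, was at 32.8 FPKM in AstroEGFR_3 and 24.1 FPKM in PT4 and at 1.55 FPKM or less in the other 5 libraries. *Pcdh11x* was likewise at 8.39 FPKM in PT2 and at 2.34 FPKM or less elsewhere in this comparison.

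The clustered arrays differed from each other in direction. In the fit without a filter on low values 20 of 21 *Pcdhb* above 0 were higher in PT, and 18 of 22 *Pcdhg* were lower. Of all features above 0 without a filter 49.1% were higher on average and 50.9% lower. In 12 of 22 *Pcdhb* and 0 of 22 *Pcdhg* all 4 PT exceeded the AstroEGFR of their own batch, whereas 1 *Pcdhb* and 11 *Pcdhg* were lower in all 4. Among all features above 0 the corresponding shares were 15.8% higher and 16.3% lower. Variable exons within an array resemble each other, and the isoforms of an array share constant exons in *Pcdhg*, so how the authors' programs split shared reads is uncertain for each single isoform. The members of an array are no independent replicates of a condition.

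The *Pcdhb* differences were larger, by their median, in the first part of the array, whose border was set after the values were seen. Of the 12 genes of that part 11 were higher in PT, with a median difference of 1.03 on the log2 scale, and of the 10 genes of the second part 9 were higher, with a median of 0.13. *Pcdhb1* to *Pcdhb12*, in array order, summed to 1.99, 0.671 and 1.73 FPKM in AstroEGFR_1, AstroEGFR_2 and AstroEGFR_3 and to 6.53, 21.2, 21.8 and 60.1 FPKM in PT1, PT2, PT3 and PT4. No gene of the 12 exceeded 0.426 FPKM in any AstroEGFR library, and in 9 of the 12 all PT lay above all AstroEGFR, as in 5.27% of all features above 0. *Pcdhb13* to *Pcdhb22* summed to 41.0, 21.8 and 19 FPKM in AstroEGFR and to 41.0, 22.3, 32.2 and 56.8 FPKM in PT, with overlapping sums and 2 of 10 genes in which the groups did not overlap (*Pcdhb14* and *Pcdhb16*).

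*Pcdhb5* was at 0.274, 0.119 and 0.410 FPKM in AstroEGFR_1, AstroEGFR_2 and AstroEGFR_3 and at 0.807, 3.69, 14.2 and 12.5 FPKM in PT1, PT2, PT3 and PT4. PT1 was the closest to AstroEGFR (log2 fold change 2.36, SE 0.74, limma, adjusted p = 0.211). *Pcdhb9* was at 0.095 to 0.426 FPKM in AstroEGFR and at 1.00, 3.10, 3.46 and 10.8 FPKM in PT1, PT2, PT3 and PT4 (log2 fold change 1.84, SE 0.58, limma, adjusted p = 0.212). *Pcdhb7* was at 0 to 0.341 FPKM and at 0.983 to 4.27 FPKM (log2 fold change 1.35, SE 0.43, limma, adjusted p = 0.221). The 7 markers of the oligodendrocyte lineage summed to 1357 and 1689 FPKM in PT1 and PT4, with 5 of 6 tested members higher and none past the threshold. In PT2 and PT3 they summed to 145 and 131 FPKM, within the AstroEGFR range of 66.8 to 223 FPKM. PT4 held the highest value of the PT libraries in each of *Pcdhb2*, *Pcdhb3*, *Pcdhb4*, *Pcdhb6*, *Pcdhb7*, *Pcdhb8*, *Pcdhb9* and *Pcdhb10*. *Pcdhb5* and *Pcdhb12* were highest in PT3 and *Pcdhb11* in PT2. In the second part of the array PT4 was highest in all but *Pcdhb15* and *Pcdhb16*. PT4 was also the library with the most *Sox10*, *Pdgfra* and *Cspg4* of that lineage, at 117, 41.9 and 64.5 FPKM, and with the most *Dcx* of neuroblasts, at 8.76 FPKM. *Olig1* and *Olig2*, however, were at 1000 and 328 FPKM in PT1 and at 1089 and 360 FPKM in PT4. *Pcdhb1* to *Pcdhb12* summed to 6.53 FPKM in PT1 and 60.1 FPKM in PT4. The part of these marker genes in the *Pcdhb* values was not tested. In the second part, *Pcdhb14* was at 1.82, 2.53 and 1.64 FPKM in AstroEGFR and at 5.38, 4.15, 9.68 and 11 FPKM in PT1, PT2, PT3 and PT4 (log2 fold change 1.44, SE 0.37, limma, adjusted p = 0.132), and *Pcdhb16* at 0.931 to 2.41 and 2.79 to 6.24 FPKM (log2 fold change 1.08, SE 0.36, limma, adjusted p = 0.240). *Pcdhb17* and *Pcdhb22*, the most abundant of the array, differed by 0.03 and 0.01 on the log2 scale.

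**Figure D3:**
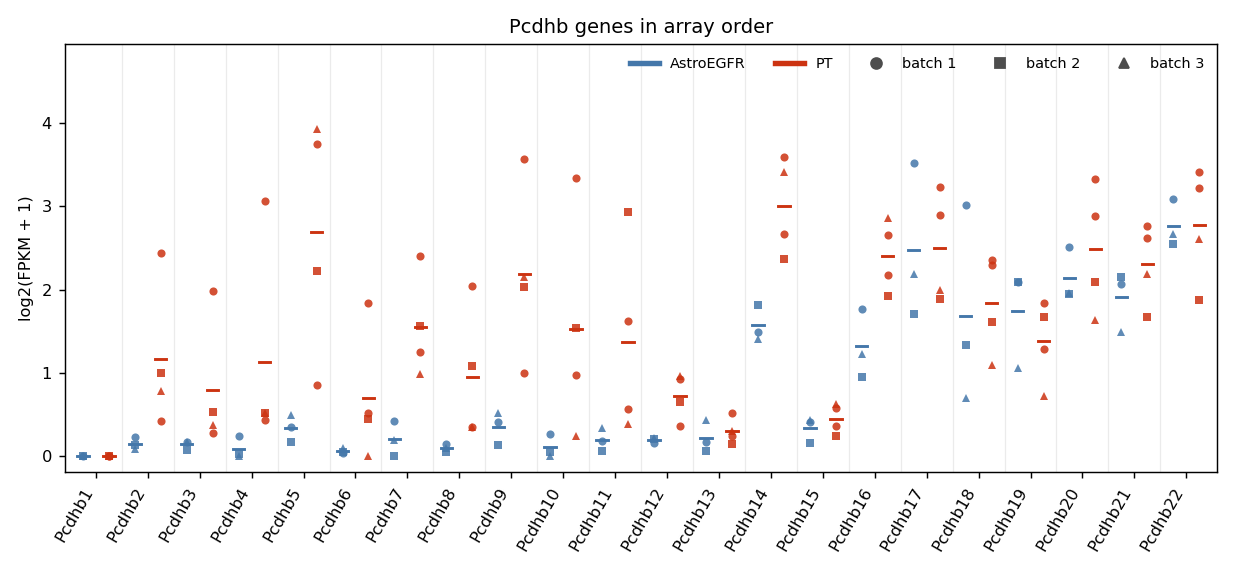
Each point is the level of a *Pcdhb* gene in 1 library of AstroEGFR or PT, as log2(FPKM + 1), with genes in the order of the array, marker shapes for the astrocyte batch and bars for the group mean. From *Pcdhb2* to *Pcdhb12* the AstroEGFR points stay at or under 0.426 FPKM and most PT points lie above them, while from *Pcdhb17* to *Pcdhb22* the groups overlap.

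In 5 *Pcdhg* isoforms every PT value lay below every AstroEGFR value. *Pcdhga10* was at 3.78, 1.44 and 4.75 FPKM in AstroEGFR_1, AstroEGFR_2 and AstroEGFR_3 and at 0.122, 0.133, 0.095 and 0.097 FPKM in PT1, PT2, PT3 and PT4. The PT values were nearly equal, and the lowest AstroEGFR value was 10.8 times the highest of PT (log2 fold change -1.87, SE 0.40, limma, adjusted p = 0.0804). *Pcdhga8* was at 3.74, 0.755 and 3.69 FPKM and at 0.133 to 0.213 FPKM (log2 fold change -1.54, SE 0.45, limma, adjusted p = 0.174), and *Pcdhga4* at 1.62, 2.01 and 3.87 FPKM and at 0.095 to 0.452 FPKM (log2 fold change -1.40, SE 0.36, limma, adjusted p = 0.137). *Pcdhga2* (log2 fold change -1.11) and *Pcdhgb4* (-1.17) were the others without overlap. *Pcdhgb2* was lower on average (log2 fold change -1.80) but stood at 8.31 FPKM in PT3, above 2 of the 3 AstroEGFR libraries.

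The C-type isoforms, whose promoters lie at the end of the array and are not chosen at random in neurons, were uneven in level. *Pcdhgc3* and *Pcdhgc5* had the highest means of *Pcdhg*, and *Pcdhac2* that of *Pcdha*, whereas *Pcdhgc4* and *Pcdhac1* lay within the range of the other isoforms of their arrays. *Pcdhgc3* was at 276, 173 and 96.1 FPKM in AstroEGFR_1, AstroEGFR_2 and AstroEGFR_3 and at 468, 203, 92.8 and 422 FPKM in PT1, PT2, PT3 and PT4. Its order over libraries followed the batch, with batch 1 highest and batch 3 lowest in both groups (log2 fold change 0.57, SE 0.63, limma, adjusted p = 0.768). Over the alternative fits the log2 fold change of *Pcdhgc3* ranged from 0.18 to 1.04. *Pcdhgc5* was at 78.4, 21.0 and 22.1 FPKM in AstroEGFR and at 23.5, 2.80, 10.8 and 14.9 FPKM in PT1, PT2, PT3 and PT4. The groups overlapped through PT1, and each PT lay below the AstroEGFR of its batch. The log2 fold change was -1.58 (SE 0.71, limma, adjusted p = 0.392), and with the batch as a block -1.85 (SE 0.33, limma, adjusted p = 0.0490), so that *Pcdhgc5* passed the threshold there. With the block and the mean of PT1 and PT4 it did not (log2 fold change -1.83, limma, adjusted p = 0.123). Without the block the value was -0.97 without AstroEGFR_1 and -1.04 without PT2. *Pcdhgc4*, on which the survival of many neurons depends, was at 1.05 to 9.06 FPKM and at 0.665 to 11.2 FPKM. In *Pcdha*, *Pcdhac2* was at 3.35, 0.404 and 5.97 FPKM in AstroEGFR_1, AstroEGFR_2 and AstroEGFR_3 and at 12.7, 1.44, 6.64 and 13.4 FPKM in PT1, PT2, PT3 and PT4, higher than its own batch in 4 of 4 (log2 fold change 1.16, SE 0.77, limma, adjusted p = 0.578). Without AstroEGFR_2 the log2 fold change was 0.50.

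The set of *Pcdhga* and *Pcdhgb* isoforms that a culture expressed resembled that of the other cultures from its astrocyte batch. *Pcdhga1* was at 20.3, 21.6, 41.4 and 17.0 FPKM in AstroEGFR_1, PT1, PT4 and AstroEGFR_1_Zfp423, the libraries of batch 1, and at 15.2 FPKM or less in the other 6. The highest of these 6 were PT3 at 15.2 FPKM and AstroEGFR_3_Zfp423 at 10.5 FPKM, both of batch 3. *Pcdhgb5* was at 12, 33.6 and 20.4 FPKM in AstroEGFR_3, PT3 and AstroEGFR_3_Zfp423, the libraries of batch 3, and at 0.927 FPKM or less in the other 7. *Pcdhga12* was at 4.85 FPKM in AstroEGFR_2 and 15.6 FPKM in PT2 and at 1.14 FPKM or less in the other 8 libraries, AstroEGFR_2_Zfp423 of the same batch (0.068 FPKM) included. Batch 3 also led in *Pcdhga11*, with 13.7, 25.8 and 13.5 FPKM in AstroEGFR_3, PT3 and AstroEGFR_3_Zfp423, but AstroEGFR_2_Zfp423 stood at 19.99 FPKM beside them and the other 6 libraries at 2.64 FPKM or less.

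Across the 19 *Pcdhga* and *Pcdhgb* isoforms, the library most like a given one by Pearson's correlation of log2(FPKM + 1) was of the same batch for 9 of 10 libraries. It was so for 4 of 10 across *Pcdhb*, for 4 of 10 across the cadherins and for 3 of 10 across all features whose mean reached 1 FPKM. The 12 pairs of libraries within a batch had a median correlation of 0.74 across the 19 isoforms, with a range of -0.12 to 0.95, and the 33 pairs between batches one of 0.11, with a range of -0.17 to 0.59. The 11 pairs from 1 batch but different groups had a median of 0.70, and the 11 pairs from 1 group but different batches one of 0.13. Across all features the order was the other way round, with medians of 0.77 and 0.80. The exception was AstroEGFR_2_Zfp423, which correlated at -0.12 with AstroEGFR_2 and at 0.59 with AstroEGFR_3. These correlations are across isoforms that share an array and constant exons, and are a description.

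Fewer isoforms made up the level in PT than in AstroEGFR. The 3 leading isoforms of the 19 held 51.9%, 39.8% and 43.8% of their summed FPKM in AstroEGFR_1, AstroEGFR_2 and AstroEGFR_3 and 80.3%, 84.1%, 70.9% and 88.2% in PT1, PT2, PT3 and PT4, with no overlap. In AstroEGFR 15, 12 and 17 of the 19 reached 1 FPKM, and in PT 6, 6, 6 and 7. The summed level itself overlapped, with 42.7 to 140 FPKM in AstroEGFR and 61.9 to 116 FPKM in PT. In AstroEGFR_Zfp423 the leading 3 held 50.8%, 78.9% and 62.9% in batches 1, 2 and 3, and 12, 6 and 8 isoforms reached 1 FPKM, so that the counts of batches 2 and 3 were near those of PT.

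**Figure D4:**
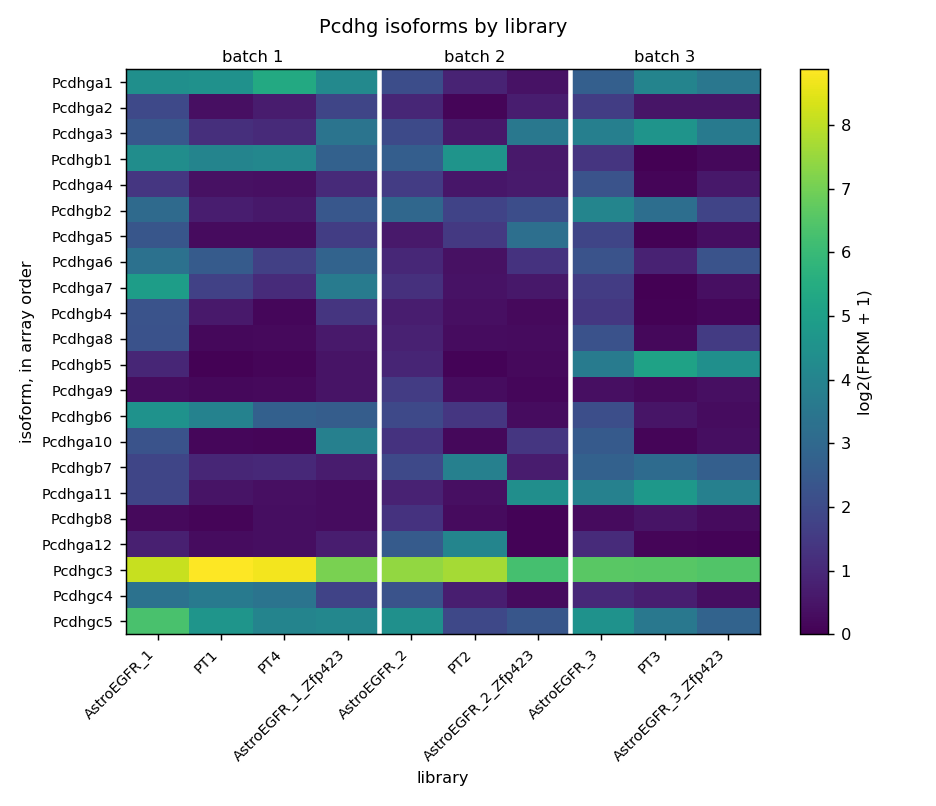
The colour gives log2(FPKM + 1) of each of the 22 *Pcdhg* isoforms, in array order, in each of the 10 libraries, which are sorted by astrocyte batch. *Pcdhga1* is brightest in batch 1, though it also reaches 15.2 FPKM in PT3 and 10.5 FPKM in AstroEGFR_3_Zfp423, and *Pcdhgb5* is bright in batch 3. PT libraries have 6 or 7 of the 19 *Pcdhga* and *Pcdhgb* isoforms at 1 FPKM or more and AstroEGFR_Zfp423 libraries 6 to 12, and *Pcdhgc3* is high throughout.

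The second comparison asked what enforced *Zfp423* does to these genes in AstroEGFR, by comparing each AstroEGFR_Zfp423 library with the AstroEGFR library of its batch. With limma and the batch as a block, 45 members were among the 12366 features tested. None passed an adjusted p of 0.05, and neither did any other feature (0%), while 913 features (7.38%) had an unadjusted p under 0.05. Of the members 7 did, all of them lower with *Zfp423* (*Pcdhgc5*, *Pcdhgb6*, *Pcdhgb1*, *Pcdhgc4*, *Pcdhga7*, *Pcdh17* and *Pcdhgb2*), against 4.08% of all features in that direction. Over all 94 members 22 were lower in 3 of 3 batches and 5 higher, against 13.6% and 12.7% of all features above 0. Of these 22, 13 were *Pcdhg*. The batch of each library is taken from its name. Over all features tested, the deviations of AstroEGFR_2_Zfp423 from its group mean correlated at -0.11 with those of AstroEGFR_2 and at 0.305 with those of AstroEGFR_3, and the deviations of AstroEGFR_3_Zfp423 at -0.26 with AstroEGFR_3 and at 0.223 with AstroEGFR_2. The values by batch and the counts over 3 batches rest on these names. Across the gamma isoforms, by contrast, AstroEGFR_3_Zfp423 was closest to the libraries of its own batch.

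*Pcdhgc5* was at 78.4, 21.0 and 22.1 FPKM in AstroEGFR_1, AstroEGFR_2 and AstroEGFR_3 and at 16.1, 4.14 and 6.09 FPKM with *Zfp423*. It was 4.89, 5.06 and 3.63 times lower in batches 1, 2 and 3, and the groups did not overlap (log2 fold change -2.01, SE 0.23, limma, adjusted p = 0.628). *Pcdhgb6* went from 22.2, 2.84 and 3.40 FPKM to 5.13, 0.215 and 0.235 FPKM in batches 1, 2 and 3 (log2 fold change -1.80, SE 0.32, limma, adjusted p = 0.628), and *Pcdhgb1* from 19.1, 5.27 and 1.61 FPKM to 5.67, 0.508 and 0.144 FPKM (log2 fold change -1.61, SE 0.36, limma, adjusted p = 0.628). *Pcdhgc3* was at 276, 173 and 96.1 FPKM without and at 134, 75.5 and 87.2 FPKM with *Zfp423*, a difference that batch 3 hardly shared (log2 fold change -0.79, SE 0.32, limma, adjusted p = 0.628). Without a filter 19 of 22 *Pcdhg* were lower, where 49.9% of all features above 0 were, and their median log2 fold change was -0.82 against 0.00027 over those features. Of 22 *Pcdhb* 15 were higher, where 50.1% of all features were, and their median was 0.037. *Pcdh17*, a protocadherin that gathers WAVE at axon contacts, was at 4.91, 1.09 and 6.18 FPKM and at 2.17, 0.052 and 0.78 FPKM (log2 fold change -1.30, SE 0.43, limma, adjusted p = 0.628).

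In several cadherins the direction differed between batches. *Cdh11* was at 27.2, 19.5 and 293 FPKM in AstroEGFR_1, AstroEGFR_2 and AstroEGFR_3 and at 311, 253 and 1.18 FPKM in the matching AstroEGFR_Zfp423 libraries, so it was 11.4 and 13 times higher in batches 1 and 2 and 249 times lower in batch 3. The batch differences were 3.47, 3.63 and -7.08 on the log2 scale. *Cdh3* (P-cadherin, found in epithelia) was at 0.114, 0.005 and 2.81 FPKM without and at 6.46, 11.5 and 0 FPKM with *Zfp423*, with the same pattern. *Cdh6* had the opposite one, with 4.33, 15.4 and 1.75 FPKM against 2.90, 0.106 and 11.6 FPKM, as had *Cdh13* with 58.6, 58.4 and 102 FPKM against 41.4, 1.90 and 162 FPKM. The summed markers of fibroblasts or meninges were 7.03, 10.5 and 0.0604 times their AstroEGFR level in batches 1, 2 and 3, in the direction of *Cdh11* in each batch. Their part in these values was not tested.

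*Cdh2* was lower in 3 of 3 batches, at 225, 235 and 215 FPKM without and 135, 31.0 and 137 FPKM with *Zfp423* (log2 fold change -1.42, SE 0.56, limma, adjusted p = 0.628). *Cdh24* was lower in 3 of 3 as well, by batch differences of -0.097, -0.63 and -1.56 on the log2 scale. All 8 astrocyte markers were lower on average as well (median log2 fold change -1.77), and the microglial markers were present in batches 1 and 2. In batch 3 the microglial markers summed to 2.10 FPKM in AstroEGFR_3 and 0.0741 FPKM in AstroEGFR_3_Zfp423. Those of fibroblasts or meninges summed to 5859 FPKM and 354 FPKM, so this pair differed strongly in them, opposite to batches 1 and 2. The differences of this 1 pair of libraries were -1.71 in *Pcdhgc5*, -1.83 in *Pcdhgb6*, -1.19 in *Pcdhgb1*, -0.14 in *Pcdhgc3* and -0.64 in *Cdh2*. The part of these markers in the differences was not tested. Without AstroEGFR_2_Zfp423, whose gamma isoforms did not resemble those of its batch, the log2 fold changes were -1.96 in *Pcdhgc5*, -1.88 in *Pcdhgb6*, -1.39 in *Pcdhgb1*, -0.59 in *Pcdhgc3* and -0.69 in *Cdh2*, so that the value of *Cdh2* rested in part on that library.

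**Figure D5:**
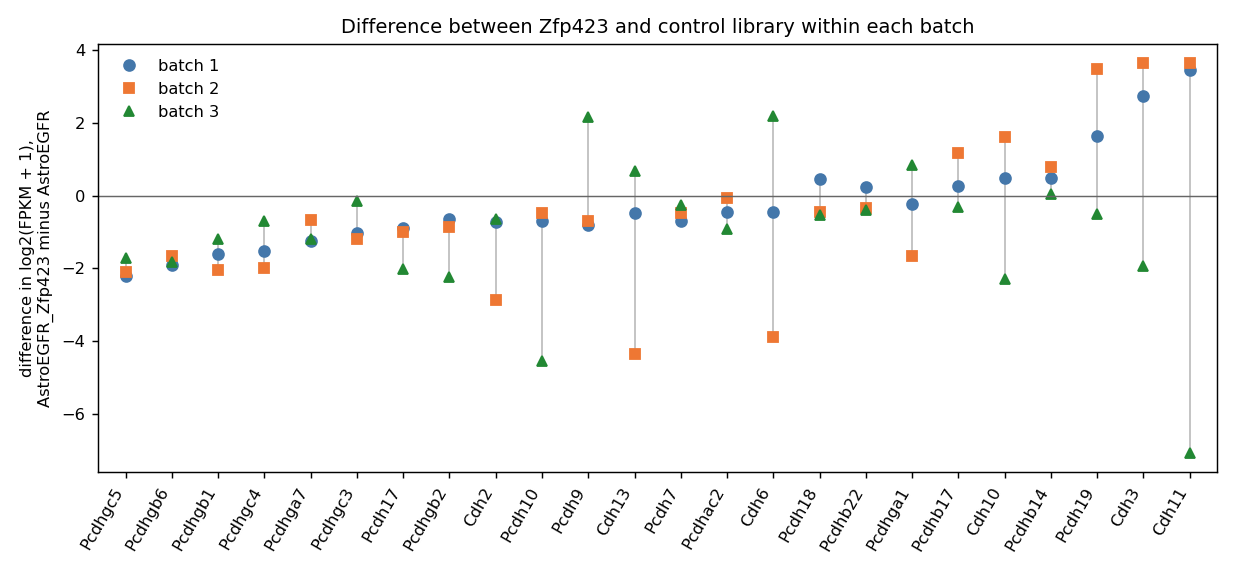
Each point is the difference in log2(FPKM + 1) between the AstroEGFR_Zfp423 and the AstroEGFR library of 1 astrocyte batch, for the 24 members named by the rule for this comparison, ordered by their median difference; grey lines join the lowest and highest batch. *Pcdhgc5*, *Pcdhgb6*, *Pcdhgb1*, *Pcdhgc4* and *Pcdhga7* lie below 0 in 3 of 3 batches, and *Cdh11* spans -7.08 to 3.63.

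Genes that act with cadherins were examined by lists. Of the catenins and their partners 13 of 14 were tested in PT against AstroEGFR, 12 lower and 1 higher, with none past the threshold, 6 lower at an unadjusted p under 0.05. Over all features 47.9% were lower, and 7.69% were lower at that p. The median log2 fold change of the list was -0.87 against 0.03 over all features. *Ctnnd1* (p120-catenin, which holds cadherins at the surface) was at 95.9 to 117 FPKM in AstroEGFR and 50.1 to 52.6 FPKM in PT (log2 fold change -0.997, SE 0.20, limma, adjusted p = 0.0698). *Vcl* (vinculin, which ties catenins to actin) was at 99.9 to 106 FPKM and 22 to 59.5 FPKM (log2 fold change -1.55, SE 0.33, limma, adjusted p = 0.0818). *Ctnnb1* (beta-catenin) was at 363 to 581 FPKM and 237 to 408 FPKM. In *Ctnnd1*, *Vcl*, *Ctnna1*, *Jup* and *Pvrl3* all PT values lay below all AstroEGFR values, as for *Cdh2*. In the other genes of the list the groups overlapped. Among all features above 0 all PT lay below in 7.75%.

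Among the giant relatives of the protocadherins 5 of 9 were tested, 1 higher and 4 lower, with none past the threshold. Over all features 47.9% were lower. *Dchs1*, the ligand of the Fat4 receptor, was the higher one, at 1.53, 3.48 and 2.12 FPKM in AstroEGFR and 44.2, 9.33, 11.6 and 55.7 FPKM in PT1, PT2, PT3 and PT4 (log2 fold change 2.87, SE 0.65, limma, adjusted p = 0.0963). Of 11 genes of the WAVE complex and kinases bound by protocadherins 6 were higher and 5 lower, near the 52.1% higher over all features. *Fyn*, a Src-family kinase, rose from 35.3, 33.7 and 45.5 FPKM to 128, 115, 152 and 171 FPKM (log2 fold change 1.86, SE 0.24, limma, adjusted p = 0.0175), and *Ptk2b*, a kinase of the focal adhesion family, was at 1.67 to 5.04 FPKM and 0 to 0.0619 FPKM (log2 fold change -1.84, limma, adjusted p = 0.0840). Of 14 genes of promoter choice at the clustered locus, among them *Ctcf* and cohesin subunits, 13 were tested, 5 higher and 8 lower. Of these 0 had an unadjusted p under 0.05, against 13.6% of all features. A count of 0 among 13 does not show that these genes were unchanged.

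With *Zfp423* no gene of these lists passed the threshold. At an unadjusted p under 0.05 there were 1 of 13 catenins and partners, 1 of 6 relatives, 2 of 11 of the WAVE list and 1 of 13 of the promoter list, against 7.38% of all features. *Adam10*, a protease that sheds N-cadherin and gamma protocadherins, was at 92.4, 43.4 and 93.3 FPKM without and 34.0, 28.6 and 36.6 FPKM with *Zfp423*, lower in 3 of 3 batches (log2 fold change -1.11, SE 0.27, limma, adjusted p = 0.628).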

How the data were processed

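RNAseq libraries of 3 AstroEGFR, 4 PT and 3 AstroEGFR_Zfp423 cultures were used. The authors deposited 1 matrix of FPKM values, which the submitters' processing notes attribute to TopHat 1.3, Cuffnorm and the mm9 assembly. The labels name a TruSeq kit and the paper removal of ribosomal RNA with stranded libraries, so strand use in counting is uncertain. All 10 columns were used. Without counts, count models could not be run.

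Values were compared as log2(FPKM + 1) with limma 3.58.1 in R 4.3.3 (linear model, empirical Bayes with trend) over features whose mean reached 1 FPKM, with Benjamini-Hochberg adjustment over all features tested and a threshold of 0.05. PT and AstroEGFR were compared without a block. With the astrocyte batch as a block, the pairing was checked by the correlation of deviations from the group means, which was 0.35 to 0.50 for same-batch libraries and below 0 for all others. Deviations within a group sum to 0, so a positive correlation with 1 library pushes those with the others below 0. AstroEGFR_Zfp423 and AstroEGFR were compared with the batch as a block, the pairing being given by the names in the labels (same-batch correlations 0.24, -0.11 and -0.26, and between other batches up to 0.305). Nothing says that libraries of a batch came from separate animals, so p-values measure the spread between these cultures. The procedure was tested on simulated data.

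Alternatives were a pseudocount of 0.1 FPKM, no filter, median-ratio scaling, no trend, the block or its absence, all 10 libraries in 1 fit, PT1 and PT4 averaged, batch 3 left out and each library left out. Leaving out batch 3 for *Zfp423*, and the block with PT1 and PT4 averaged, were chosen after the values were seen. The members, lists and tests were chosen with earlier results of these data known. One list of partner genes is not reported here. Named were members past the threshold, the 10 largest changes per comparison, the 3 highest means per subgroup, and those at an unadjusted p under 0.05. Members named beyond these (among them *Cdh1*, *Cdh5*, *Cdh15*, *Cdh22*, *Pcdh10* in PT, *Pcdh11x* and single *Pcdhg* and *Pcdhb* isoforms) were chosen after their values were seen. Gene order and promoter sequences came from RefSeq (GRCm38.p6), in which all 94 symbols were found; coordinates on mm9 were not used. Python 3.11.15 with pandas 2.3.3, numpy 2.4.6 and matplotlib 3.10.9 was used for the rest.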

Additional observations from a re-analysis of the deposited data

Results flagged for a closer look

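Among the 37 named members, examined over the 4 PT libraries, 4 had a library whose gap to its nearest neighbour exceeded Dixon's 95% limit, as a share of the range. Normally distributed values would give about 1 in 20, a rate that values with a floor at 0 need not keep. In *Cdh3* only PT2 was above 0, at 0.126 FPKM, and the gap was 1 of the range, as any value above 0 gives when the others are all at 0. In *Cdh20*, PT3 at 1.02 FPKM stood below the others at 9.84 to 10.5 FPKM (0.964). In *Cdh4*, PT2 at 17.9 FPKM stood above the others at 0 to 0.17 FPKM (0.947). In *Pcdhgb1*, PT3 was listed at 0 and the others were at 14.9 to 22.9 FPKM (0.871).

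Of 24 members named for *Zfp423*, 4 had an effect that was at least 1 on the log2 scale upward in a batch and at least 1 downward in another. The span from the lowest to the highest batch was 10.71 in *Cdh11*, 6.09 in *Cdh6*, 5.56 in *Cdh3* and 3.90 in *Cdh10*. With 1 library per group in each batch these differences between batches were not tested. *Cdh10*, *Cdh11* and *Cdh3* were higher with *Zfp423* in batches 1 and 2 and lower in batch 3, and *Cdh6* was lower in batches 1 and 2 and higher in batch 3.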

How the results depend on the processing

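In PT against AstroEGFR, 152 features passed in the reported fit, 475 with the batch as a replicate block, 82 with all 10 libraries in 1 fit, 59 with PT1 and PT4 averaged, 49 with averaging and the replicate block together, 8 without batch 3, and 7 to 123 with a library left out (7 without AstroEGFR_1, 54 without AstroEGFR_3, 97 without PT1, 70 without PT2, 58 without PT4). Of the members 0 passed, 3 with the replicate block, 1 without trend (*Pcdhga10*, log2 fold change -1.87, limma, adjusted p = 0.0432), and 0 to 1 with a library left out, the 1 being *Cdh11* without AstroEGFR_3. For *Zfp423*, 0 features passed, 2 without the replicate block, and 0 to 60 with a library left out, 47 without AstroEGFR_2 and 60 without AstroEGFR_2_Zfp423. No member passed in any of these fits for *Zfp423*. The causes were not tested. With a library left out, 12 of 30 named members for PT and 16 of 24 for *Zfp423* had a log2 fold change that moved by over 1.5 times or turned. Some changed sign, most of them near 0, but also *Cdh13* (reported as -1.40) and *Cdh6* (-0.72) for *Zfp423*, both without either library of batch 2. Those of PT were 0.82 without batch 3 for *Cdh10* (-0.63 to 0.31 with a library left out), -0.19 with the replicate block and -0.15 with PT1 and PT4 averaged (with and without the block) for *Pcdhb17* (-0.35 to 0.56), and -0.0088 with a pseudocount of 0.1, -0.13 with the replicate block and -0.17 with averaging (with and without the block) for *Pcdhb22* (-0.20 to 0.31). Those of *Zfp423* were 1.04 for *Cdh10* and -0.76 for *Pcdh9* without batch 3 and -0.21 for *Cdh11* with a pseudocount of 0.1. With a library left out they ranged from -0.91 to 1.04 in *Cdh10*, -1.80 to 3.55 in *Cdh11*, -2.43 to 0.086 in *Cdh13*, -2.17 to 0.87 in *Cdh6*, -0.76 to 0.73 in *Pcdh9*, -0.018 to 0.73 in *Pcdhb17* and -0.95 to 0.30 in *Pcdhga1*. The other named members kept their direction in the fits run. Scaling moved the median of all features by 0.014 and 0.016. The sparse values of AstroEGFR_3 and PT3 limit what can be said of isoforms under 1 FPKM in batch 3.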
